A study of Mus musculus with 2 samples.

Results

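The genes described here encode the machinery by which vesicles dock and fuse with membranes, above all the synaptic vesicle at the nerve terminal. They were chosen by their symbols on the Clariom S mouse array, with a pattern that holds no measured value. Earlier results of these data were known when this choice was made. The pattern took the synaptotagmins (Syt), RIMs (Rims), Rab3 proteins, VAMPs, SNAP proteins, syntaxins (Stx) and syntaxin-binding proteins (Stxbp). It also took the complexins (Cplx), SV2 proteins, synapsins, synaptophysin and the Munc13 proteins (Unc13). This gave 86 of 19494 named genes, each with 1 probe set. The pattern for Rab3 also took in 4 regulators of Rab3 and 11 GTPases named Rab30 to Rab39, which are described apart.

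RNA came from astrocytes of male C.B-17/Icr-+/+Jcl mice that underwent permanent middle cerebral artery occlusion (MCAO) at an age of 7 weeks. In the MCAO + exercise group a running wheel was available for 15 days after the occlusion, and in the MCAO + non-exercise group it was not. Mice of both groups had been accustomed to the wheel before surgery and were given BrdU after it. On post-operative day (POD) 15 cells of the ipsilateral cortices were bound to magnetic beads through the astrocyte surface antigen ACSA-2, and RNA of 4 extracts per group, each from several mice, was mixed into 1 pool and measured on 1 array. No array of mice without ischemia was analysed here, so the 2 arrays compare exercise after MCAO with no exercise after MCAO. With 1 array per group no difference was tested, no error can be given, and a pooled value hides the spread between mice. Fewer cells of a type and less RNA per cell cannot be told apart in such pools.

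In a neuron, the vesicle protein synaptobrevin (VAMP) and the membrane proteins syntaxin and SNAP-25 zip into a SNARE complex that pulls vesicle and plasma membrane together. Munc18 (Stxbp) and Munc13 proteins assemble the complex, complexin clamps it, and synaptotagmin triggers fusion when calcium enters. Rab3 on the vesicle and RIM at the active zone bring the vesicle to its release site. Most of these families also have members that nearly every cell uses for constitutive secretion and endosomal traffic, and astrocytes are known for the non-neuronal forms, such as SNAP-23 and VAMP3.

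Each value is a log2 intensity, and each difference is the exercise array minus the non-exercise array, on the log2 scale, so that 1 is a doubling. The direction follows the deposited labels. It is opposite to the direction in the study's gene tables for all 72 of their genes that could be matched. Of these 72, 0 are among the exocytosis genes. Those tables list Lcn2, the lipocalin 2 gene, as lower after exercise. Apart from the arrays, the paper reports a tendency to less Lcn2 RNA in sorted astrocytes after exercise, by qPCR. It also reports that staining found the protein in a smaller part of the astrocytes of exercised mice. For this gene both results have the sign of the tables. Whether the labels of the 2 arrays were exchanged was not tested, and if they were, every sign below would turn. A gene was kept when the mean of its values on both arrays was above 4.98, the mean of the 25th percentiles of the 2 arrays. This left 14600 genes, 549 of which (3.76%) were higher by more than 1 on the exercise array and 304 of which (2.08%) were lower by more than 1.

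Upstream sequences are shown for 4 genes on which the results turn, the active zone genes Rims1 and Unc13c, which were brighter on the exercise array, the calcium sensor gene Syt1, which was dimmer there, and Snap23, a ubiquitous form whose values nearly coincided. Each is the 250 bases before the transcript start in RefSeq on GRCm38.p6, 5′ to 3′ in the direction of the gene, in lower case, with GC boxes (GGGCGG, or CCGCCC on the other strand) in capitals.
Rims1, chr1:22806159-22806408, minus strand: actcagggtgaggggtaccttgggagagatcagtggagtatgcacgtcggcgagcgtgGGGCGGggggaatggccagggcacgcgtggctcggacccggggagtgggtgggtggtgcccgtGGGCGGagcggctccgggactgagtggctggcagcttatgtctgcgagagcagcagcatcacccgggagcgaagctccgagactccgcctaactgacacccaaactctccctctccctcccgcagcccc
Unc13c, chr9:73969038-73969287, minus strand: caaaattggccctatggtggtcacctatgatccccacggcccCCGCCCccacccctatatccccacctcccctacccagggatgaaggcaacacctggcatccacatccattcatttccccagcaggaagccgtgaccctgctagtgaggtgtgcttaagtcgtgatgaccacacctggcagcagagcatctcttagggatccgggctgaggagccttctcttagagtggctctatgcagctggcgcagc
Syt1, chr10:109010976-109011225, minus strand: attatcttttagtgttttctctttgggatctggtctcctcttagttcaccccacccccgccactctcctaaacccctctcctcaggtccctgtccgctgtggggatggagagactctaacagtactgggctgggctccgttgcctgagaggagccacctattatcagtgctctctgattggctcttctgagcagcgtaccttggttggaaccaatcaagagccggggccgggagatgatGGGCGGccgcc
Snap23, chr2:120567421-120567670, plus strand: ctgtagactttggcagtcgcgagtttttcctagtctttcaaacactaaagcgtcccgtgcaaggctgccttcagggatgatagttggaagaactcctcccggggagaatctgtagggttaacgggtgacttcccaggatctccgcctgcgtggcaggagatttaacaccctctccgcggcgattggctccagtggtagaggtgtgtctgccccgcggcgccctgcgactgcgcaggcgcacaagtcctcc
The Rims1 window held 2 GC boxes, the Unc13c window 1 and the Syt1 window 1, while the Snap23 window held 0. Syt1 has another annotated start, whose window held 0. Of the 86 genes, 68 had an upstream window in the table, 88 windows in all, and 62.5% of these held a GC box on either strand, against 32.7% of the 32851 windows of all genes. By window, a GC box was found in 75% of the 8 of genes higher by more than 1. It was found in 71.4% of the 7 windows of genes lower by more than 1. By gene, a box stood before 6 of the 7 higher genes with a window and before 3 of the 3 lower ones. This compares with 50 of the 68 exocytosis genes and 9555 of all 27025 genes. The median count of the letters CG per window was 14 for exocytosis genes and 6 for all windows. A TATA box (TATAAA, or TTTATA on the other strand) was found in 6.82% of the windows of the exocytosis genes and in 12.4% of all windows, and a CCAAT box (CCAAT or ATTGG) in 22 of the 88 windows and in 33.8% of all windows. These matches are letters in a window and not binding sites.

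Of the 86 exocytosis genes 74 were kept. Of these, 11 (14.9%) were higher by more than 1 on the exercise array, beside 3.76% of all kept genes. Lower by more than 1 were 3 (4.05%), beside 2.08% of all kept genes. The median difference of the 74 was 0.26, beside 0.04 over all kept genes, and 50 of the 74 were above 0, beside 53.7% of all kept genes. The other 12 were Stx1a, Stx19, Sv2b, Sv2c, Cplx4, Rab37, Rab38, Syt2, Syt8, Syt13, Syt14 and Syt16. Of these 12, 9 were below the 25th percentile on both arrays, so nothing can be said of their direction. Rab37 and Syt16 exceeded it on the exercise array alone, by little, and Syt14 on the non-exercise array alone.

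**Figure D1:**
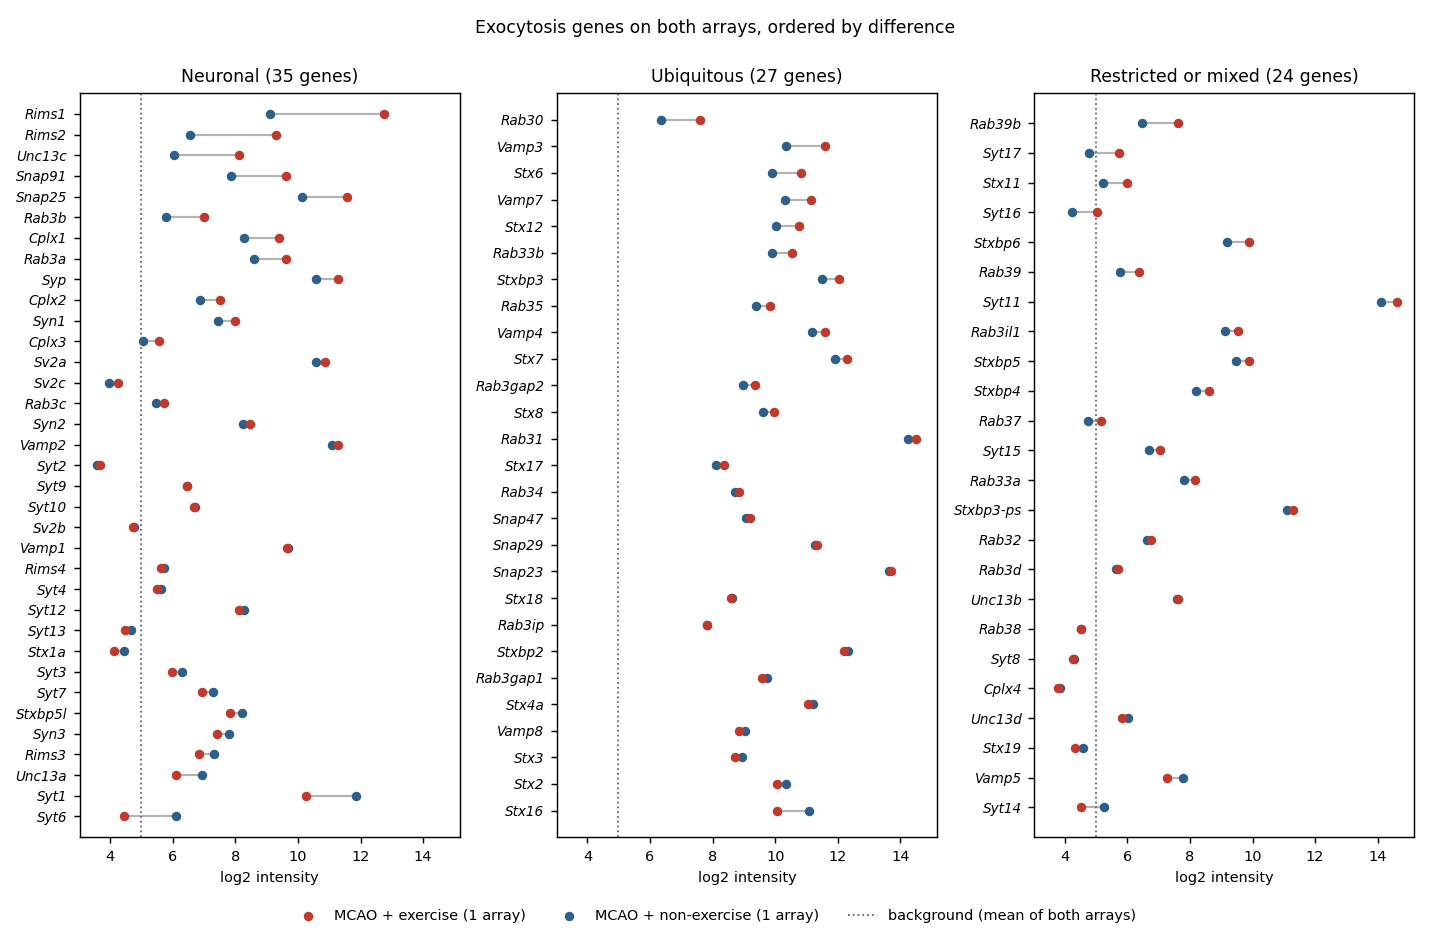
The log2 intensity of each of the 86 exocytosis genes on the exercise array (red) and the non-exercise array (blue), 1 array each, in 3 panels by class and ordered by difference, with the mean background of 4.98 as a dotted line. The neuronal genes spread from Rims1, where the exercise array leads by 3.62, to Syt6 and Syt1, where the non-exercise array leads, while most ubiquitous genes lie close together.

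The genes were then divided by where they are known to act. The 35 neuronal forms are those typical of the nerve terminal, the 27 ubiquitous forms serve secretion and endosomes in most cells, and the remaining 24 are restricted to other cells or mixed. The neuronal and the ubiquitous forms had similar medians and a different spread. The 30 kept neuronal genes had a median difference of 0.20, with quartiles of -0.28 and 0.96, and ran from -1.66 to 3.62. The 27 ubiquitous genes, all kept, had a median of 0.24, with quartiles of -0.07 and 0.50, and ran from -1.02 to 1.27. The neuronal minus the ubiquitous median was -0.04, but 0.03 after quantile normalization, which put the medians at 0.10 and 0.07, and 0.19 among genes brighter than the median of all named genes. It was -0.14 with the filter at the 10th percentile and -0.13 without a filter. Of the neuronal genes 8 were higher and 2 were lower by more than 1, together 33.3%, whereas of the ubiquitous genes 2 were higher and 1 was lower, together 11.1%, and of all kept genes 5.84% lay past 1 in either direction. The neuronal genes higher by more than 1 numbered 6 after loess correction, after quantile normalization and with an offset of 32 before log2.

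The probe sets of the neuronal genes gave lower intensities, with a median log2 level of 7.66, against 10.21 for the ubiquitous ones, so the share past 1 was also read by level. When all kept genes were ordered by level and cut into 4 equal sets of 3650 genes, 5.70%, 6.14%, 6.14% and 5.40% lay past 1, given with the dimmest set first. The neuronal genes past 1 were 1 of 6, 3 of 12, 3 of 6 and 3 of 6 in these sets, and the ubiquitous genes 1 of 2, 0 of 10 and 2 of 15 in the upper 3. The dimmest set had more genes lower by more than 1 (4.27%) than higher (1.42%), and the brightest more genes higher (4.79%) than lower (0.603%).

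**Figure D2:**
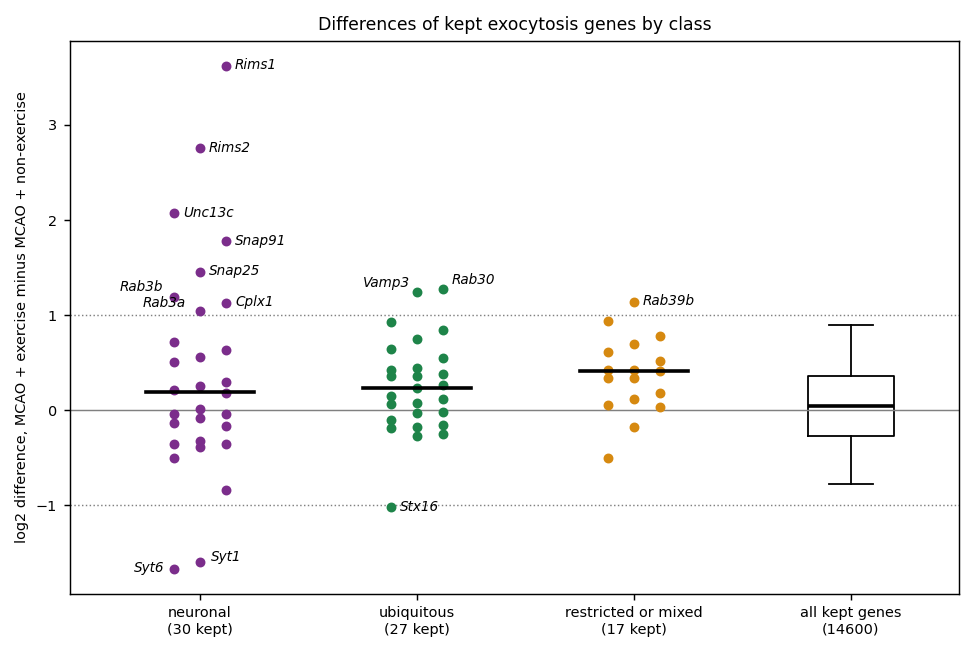
The log2 difference of each kept exocytosis gene, exercise minus non-exercise, by class (points, with black bars for medians), beside a box of all 14600 kept genes with its quartiles and whiskers at percentiles 5 and 95. Bars of the neuronal and ubiquitous genes lie at 0.20 and 0.24, and the 10 neuronal genes past 1 reach farther in both directions than the 3 ubiquitous ones.

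The active zone genes gave the highest values. Rims1, whose protein ties Rab3 on the vesicle to calcium channels and Munc13, had an intensity of 6845 on the exercise array and 556.5 on the non-exercise array, a difference of 3.62 or 12.3-fold. Rims2, its close relative, had 635.0 on the exercise array and 94.1 on the non-exercise array, a difference of 2.76 or 6.75-fold. The short forms Rims3 and Rims4, which lack the part that binds Rab3, had differences of -0.50 and -0.08. The Munc13 priming factors were split as well. Unc13c, the form of cerebellar neurons, had log2 values of 8.13 on the exercise array and 6.06 on the non-exercise array, a difference of 2.07. Unc13a, the main form of cortical excitatory synapses, had 6.10 on the exercise array and 6.94 on the non-exercise array, a difference of -0.84. Unc13b, which is found in brain and in other tissues, differed by 0.03, and Unc13d, the form of blood cells, by -0.17.

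All 4 Rab3 GTPases had values above 0, and Rab3a and Rab3b were higher by more than 1. Rab3a, the main Rab3 of synaptic vesicles, had 9.63 on the exercise array and 8.59 on the non-exercise array, a difference of 1.04. Rab3b had 6.98 on the exercise array and 5.79 on the non-exercise array, a difference of 1.19. Both calls depended on the processing. Rab3a was 0.88 after quantile normalization, 0.89 after loess correction and 0.98 with an offset of 32 before log2. Rab3b was 0.86 with that offset. Rab3c, at 5.73 and 5.47 on the same arrays, differed by 0.25, and Rab3d, the form of exocrine and other secretory cells, by 0.05. The regulators of Rab3 all lay within 1. Rab3gap1 and Rab3gap2, whose products together switch Rab3 off, had differences of -0.16 and 0.36, and the exchange factor genes Rab3ip and Rab3il1, named for their binding to Rab3, had -0.03 and 0.42.

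Of the SNARE genes, Snap25 was higher by more than 1 and its ubiquitous relatives lay near 0. Snap25, which supplies 2 helices of the neuronal SNARE complex, had an intensity of 3061 on the exercise array and 1115 on the non-exercise array, a difference of 1.46 or 2.75-fold. Snap23, its counterpart in non-neuronal cells, had 13218 on the exercise array and 12612 on the non-exercise array, a difference of 0.07, and Snap29 and Snap47 differed by 0.08 and 0.12. The median of these 4 genes, 0.10, was -0.05 after loess correction and -0.08 after quantile normalization. Snap91, named alike but encoding AP180, a clathrin adaptor that retrieves synaptic vesicles, had log2 values of 9.63 on the exercise array and 7.85 on the non-exercise array, a difference of 1.78.

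Among the VAMPs it was a ubiquitous form, and not the neuronal ones, that was past 1. Vamp2, the synaptobrevin of most central synapses, had 11.28 on the exercise array and 11.10 on the non-exercise array, a difference of 0.18, and Vamp1 differed by -0.04. Vamp3, or cellubrevin, the form of recycling endosomes that astrocytes are known to use, had an intensity of 3110 on the exercise array and 1313 on the non-exercise array, a difference of 1.24 or 2.37-fold. Vamp7, of late endosomes and lysosomes, had a difference of 0.85 and Vamp4, of the trans-Golgi network, one of 0.42. Vamp8, an endosomal form common in secretory and blood cells, had a difference of -0.19 and Vamp5, first known from muscle, one of -0.50. The median of the 7 VAMP genes, 0.18, was just below 0 after loess correction and -0.04 after quantile normalization.

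Syntaxins of the plasma membrane differed little. Stx1a, the neuronal form, was not above background on either array, with 4.13 on the exercise array and 4.44 on the non-exercise array. Stx2, Stx3 and Stx4a, which serve secretion in other cells, had differences of -0.28, -0.25 and -0.18. Higher values belonged to endosomal forms, with 0.93 for Stx6, 0.75 for Stx12, 0.38 for Stx7 and 0.36 for Stx8. Stx16, a partner of Stx6 and Vamp4 in traffic between endosomes and the trans-Golgi network, went the other way, with 10.07 on the exercise array and 11.09 on the non-exercise array, a difference of -1.02. Stx17, of autophagosomes, and Stx18, of the endoplasmic reticulum, had differences of 0.24 and -0.02, and Stx11, of immune cells, one of 0.78. The syntaxin-binding genes stayed within 1, from -0.36 for Stxbp5l, a neuronal tomosyn, to 0.70 for Stxbp6, or amisyn. Of the Munc18 forms outside neurons, Stxbp2 had 12.21 on the exercise array and 12.31 on the non-exercise array, and Stxbp3 had 12.05 and 11.51 on the same arrays. Stxbp3 is nearly copied in the pseudogene Stxbp3-ps, which differed by 0.18, so both values are uncertain.

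Of the 16 synaptotagmins 11 were kept, and their median of -0.14 was 0.030 after loess correction and 0.049 after quantile normalization. Syt1, the calcium sensor of fast release in the forebrain, had an intensity of 1214 on the exercise array and 3681 on the non-exercise array, a difference of -1.60, or 3.03-fold brighter on the non-exercise array. Syt6 had a log2 value of 4.43 on the exercise array, below the background of 4.89 there, and 6.09 on the non-exercise array, so it was at least 2.30-fold lower on the exercise array, counted against that background. Of the 8 kept neuronal synaptotagmins 7 had negative differences, and Syt9, another fast sensor, had 0.01. The other 5 lay between -0.35 for Syt7, the sensor of asynchronous release, and -0.04 for Syt10. The median of these 8 was -0.24, and between -0.35 and -0.16 over the 10 alternative settings, whereas the 22 kept neuronal genes outside the family had a median of 0.53. That median was 0.29 without a filter and with the filter at the 10th percentile, and 0.39 with an offset of 32 before log2. Of the 22, 8 (36.4%) were higher and 0 lower by more than 1, beside 3.76% and 2.08% of all kept genes. Setting the synaptotagmins apart was done after their values had been seen. It took out Syt1 and Syt6, the neuronal genes lower by more than 1, so the 0 follows from the split. Syt11, which does not sense calcium and is found in glia as well as neurons, had 14.62 on the exercise array and 14.10 on the non-exercise array, a difference of 0.52. Syt17, dim on both arrays, differed by 0.94, or at least 1.57-fold, since it was not above background on the non-exercise array.

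Complexins, which clamp the SNARE complex, and the integral vesicle proteins mostly stayed within 1. Cplx1 had 9.40 on the exercise array and 8.27 on the non-exercise array, a difference of 1.13, which was 0.99 after loess correction and after quantile normalization, and Cplx2 had 7.52 and 6.89 on the same arrays, a difference of 0.64. Cplx3, known from the retina, was above background on the exercise array alone, at least 1.40-fold, and Cplx4 on neither array. Syp, or synaptophysin, an abundant protein of the vesicle membrane, had 11.29 on the exercise array and 10.57 on the non-exercise array, a difference of 0.72. Sv2a, the transporter-like vesicle protein to which levetiracetam binds, had 10.86 and 10.56 on the same arrays, a difference of 0.29. The synapsins, which tether vesicles to actin in the reserve pool, had differences of 0.56 for Syn1, 0.21 for Syn2 and -0.38 for Syn3.

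Set beside each other, the isoform pairs differed in direction. In 6 pairs both forms were measured and in 5 of them both were kept. The neuronal form had the higher difference for Snap25 over Snap23, by 1.39, for Rab3a over Rab3d, by 0.99, and for Vamp1 over Vamp8, by 0.15. The partner form had the higher one for Vamp3 over Vamp2, where the gap was -1.06, and for Unc13d over Unc13a, where it was -0.67. Rab3d and Unc13d were classed as restricted or mixed, so their pairs do not set a neuronal form against a ubiquitous one. Only differences are set side by side here, because levels of different probe sets cannot be compared.

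**Figure D3:**
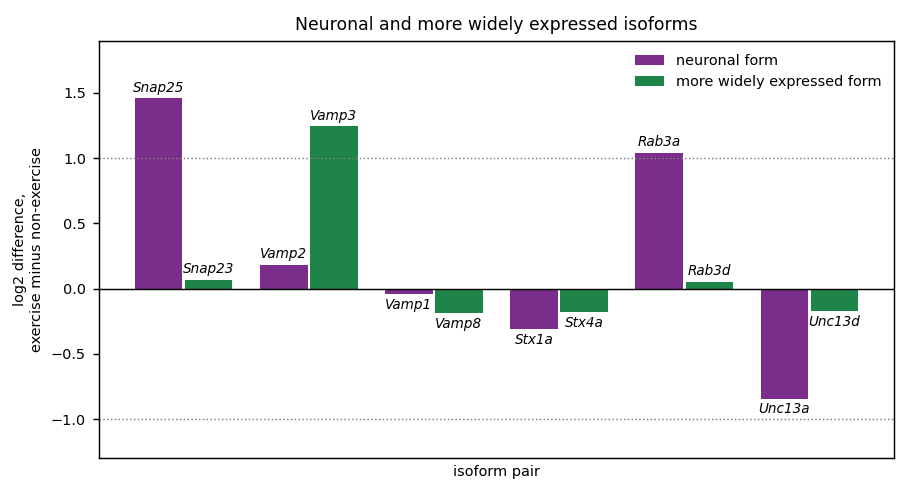
Log2 differences, exercise minus non-exercise, of neuronal forms (purple) and of their partner forms (green) in 6 pairs, 1 array per group, with dotted lines at 1 and -1. The legend calls all partners more widely expressed, but Rab3d and Unc13d were classed as restricted or mixed. Snap25 at 1.46 and Rab3a at 1.04 exceed their partners, whereas Vamp3 at 1.24 exceeds Vamp2, and Stx1a was not above background on either array.

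The genes of the fast release machinery were also read as a list. Of its 12 genes measured, 10 were kept, and 5 of these, Rims1, Rims2, Snap25, Cplx1 and Rab3a, were higher by more than 1, while Syt1 was lower. Of all kept genes 3.76% were higher and 2.08% lower. Cplx1 and Rab3a no longer passed 1 after loess correction, at 0.99 and 0.89, or after quantile normalization, at 0.99 and 0.88. The median of the 10 was 0.84, and 0.41 when Stx1a and Syt2, which had 3.69 on the exercise array and 3.58 on the non-exercise array, were counted too. By contrast, the 11 ubiquitous SNARE and Munc18 genes of exocytosis had a median of 0.07, or -0.13 after quantile normalization, and only Vamp3 among them was past 1.

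**Figure D4:**
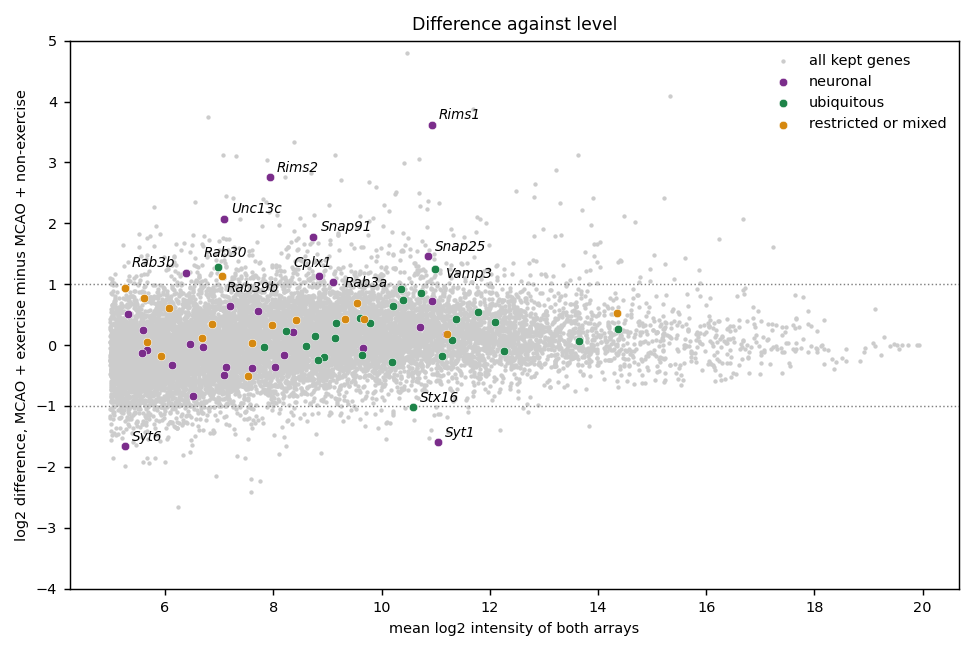
The log2 difference of the 74 kept exocytosis genes against their mean log2 intensity on both arrays, coloured by class, over all 14600 kept genes in grey, 1 of which lies outside the axis. Rims1 at 3.62 and Snap25 at 1.46 stand among genes of high level, and Syt1 at -1.60 lies on the lower side.

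The Rab GTPases numbered 30 to 39 act on the Golgi apparatus and on endosomes. All 9 kept ones had positive differences, with a median of 0.45, which was 0.26 after quantile normalization. Rab31, of the trans-Golgi network and endosomes, had 14.50 on the exercise array and 14.24 on the non-exercise array, a difference of 0.26. Rab30, a Golgi GTPase, had 7.61 and 6.34 on the same arrays, a difference of 1.27. Rab39b, a neuronal GTPase linked to intellectual disability in humans, had 7.62 and 6.48, a difference of 1.14. The other 6 lay between 0.12 for Rab32 and 0.64 for Rab33b.

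Presynaptic and exocytosis genes outside these families also had values of both signs. Of 74 such genes measured, 70 were kept, and the median was 0.17. Of the 70, 6 (8.57%) were higher by more than 1 and 1 (1.43%) was lower, beside 3.76% and 2.08% of all kept genes. Rph3a, which encodes rabphilin, a Rab3 effector like RIM, had 9.41 on the exercise array and 6.37 on the non-exercise array, a difference of 3.04. Sytl5, which encodes a granule-associated synaptotagmin-like protein, was higher by 2.44, the vesicular glutamate transporter gene Slc17a7 by 1.67, and Napb, a brain form of the SNARE-recycling factor SNAP, by 1.39. Ppfia3, an active zone liprin, had 8.21 on the exercise array and 7.01 on the non-exercise array. The ubiquitous form Napa differed by 0.23, and Nsf, the ATPase that works with both forms, by -0.07. Erc2, an active zone scaffold that binds RIM, had 9.02 on the exercise array and 10.35 on the non-exercise array, a difference of -1.33. Further low values were those of Rimbp2, the RIM-binding protein gene, at -0.87, the exocyst subunit gene Exoc8 at -0.78, Rab27a at -0.77 and the synuclein gene Sncb at -0.67. Exoc1, of the same complex as Exoc8, was higher by 1.02. The large scaffold genes Bsn and Pclo differed by -0.19 and -0.02.

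Markers of neurons differed in both directions, more of them upwards. Of 19 neuron markers measured, 17 were kept, and 13 of these were above 0. Of the 17, 6 (35.3%) were higher by more than 1 and 1 (5.88%) was lower, beside 3.76% and 2.08% of all kept genes. The median of the neuron markers was 0.76. Their summed intensity was 46482 on the exercise array and 10937 on the non-exercise array, and on the exercise array most of it came from Camk2a, a kinase of excitatory neurons, with log2 values of 15.19 on that array and 12.06 on the non-exercise array. Map2, of dendrites, and Slc17a7 had differences of 0.33 and 1.67, and Nefm and Vip were not above background on either array. Among those of inhibitory neurons, Gad1, which makes GABA, had 6.78 on the exercise array and 7.83 on the non-exercise array, a difference of -1.04. Npy and Slc32a1 had differences of -0.56 and -0.27, whereas Sst, Pvalb and Gad2 had positive ones of 1.40, 0.76 and 0.51. Gad2 was above background on the exercise array alone. The part of neuronal RNA in the differences above was not tested.

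Astrocyte markers were above background on both arrays, as were most markers of the other cell types. Without an array of unsorted cells this does not check the sort. All 14 astrocyte markers had differences above 0, with a median of 0.80. Of the 14, 6 (42.9%) were higher and 0 lower by more than 1, beside 3.76% and 2.08% of all kept genes. The summed intensities of the 14 were 227017 on the exercise array and 146475 on the non-exercise array. Of these, Aldoc, Slc1a2 and Gja1 differed by 1.24, 0.11 and 0.85. The 12 oligodendrocyte markers were also all above 0, with a median of 0.79 and sums of 1651850 on the exercise array and 1084320 on the non-exercise array, and Mbp, Trf and Mal differed by 0.60, 0.01 and 0.35. Markers of oligodendrocyte precursors had a median of 1.15 over 6 genes and sums of 94927 on the exercise array and 19897 on the non-exercise array. Most of both sums came from Bcas1, with log2 values of 16.43 on the exercise array and 14.01 on the non-exercise array. Among the 6 genes, Bcas1, Olig2 and Olig1 were higher by 2.42, 1.15 and 1.15. Of these 6, 4 were higher and 1 was lower by more than 1, beside 3.76% and 2.08% of all kept genes. The lower one was Cspg4, with 7.62 on the exercise array and 8.87 on the non-exercise array, a difference of -1.26.

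Of 9 neutrophil markers 6 were kept, with a median of 1.08 and sums of 27716 on the exercise array and 27724 on the non-exercise array. Most of both sums came from Csf3r, with log2 values of 14.52 on the exercise array and 14.67 on the non-exercise array. Of the 6 kept, 5 were above 0, among them Ngp at 2.83 and Retnlg at 1.62. Csf3r, S100a9 and S100a8 differed by -0.15, 0.89 and 1.04, and Camp was not above background on either array. Microglia markers had a median of -0.29 over 11 genes, with Laptm5, Csf1r and C1qb at -0.26, -0.06 and -0.29, but 3 of the 11 were above 0, Tmem119 at 0.69, Cx3cr1 at 0.14 and P2ry12 at 0.02. Endothelial markers had a median of -0.31 over 10, with Ly6c1, Slco1a4 and Flt1 at -0.34, -0.28 and -0.20. The sums of the microglia markers were 1081460 on the exercise array and 1281540 on the non-exercise array, and those of the endothelial markers 121106 on the exercise array and 151335 on the non-exercise array. Above background on both arrays were 15 of the 19 neuron markers, 6 of the 9 neutrophil markers and all measured markers of oligodendrocytes, their precursors, microglia and endothelium. The part of such cells in the values of the exocytosis genes was not tested.

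**Figure D5:**
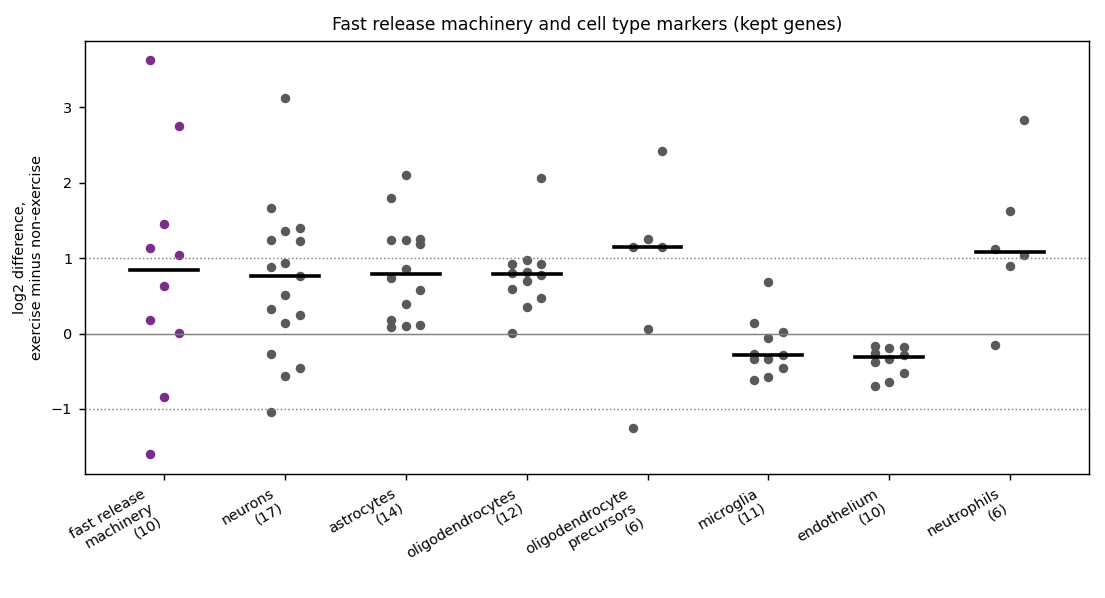
Log2 differences, exercise minus non-exercise, of the 10 kept genes of the fast release machinery (purple) and of the kept markers of 7 cell types (grey), with black bars for medians and 1 array per group. The bar of the release machinery at 0.84 lies near those of neurons at 0.76 and astrocytes at 0.80, above those of microglia and endothelium, and its points spread from Syt1 at -1.60 to Rims1 at 3.62.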

How the data were processed

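The authors deposited linear intensities of 22142 probe sets on 2 Clariom S arrays, normalized with GCCN-SST-RMA. Affymetrix Expression Console and RMA appear, with no version, in the processing notes of the submitters. The genome build is not given in the sources used here. Because the intensities were linear, log2 was taken first. No scanner files or control probe sets were used here, so background correction and normalization were taken as deposited and the study's negative-control filter was replaced by the percentile. Platform annotation gave 1 gene symbol to 19527 probe sets, several to 0 and none here to 2615, and the brightest probe set stood for a gene. All 86 exocytosis genes matched RefSeq (GRCm38.p6), from which upstream windows were taken.

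With 1 array per group there was no test, and precision is limited by the number of arrays. Higher and lower mean past 1 or -1 on the log2 scale, the cutoff of the study's methods, but after a different filter. The study's tables list 80 genes, 0 of which are exocytosis genes. Here 853 genes passed the cutoff, 14 of them exocytosis genes, so these 14 are not calls of the study. The reason for the gap was not tested. The genes, classes and lists were chosen with earlier results of these data known. Named were members past 1, the fast release genes, the isoform pairs, the brightest gene of each family, the 5 highest and 5 lowest of the other presynaptic genes, and of each marker list the 3 brightest and any not above background on either array. Other genes named were chosen after their values were seen. The alternatives were 5 other filters, median centring, quantile normalization, loess with a span of 0.3, an offset of 32 and the mean of probe sets. The scripts were tested on simulated data. Python 3.11.15, NumPy 2.4.6, pandas 2.3.3, statsmodels 0.14.6 and matplotlib 3.10.9 were used.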

Additional observations from a re-analysis of the deposited data

How the results depend on the processing

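No paired analysis was possible because each group had 1 array, and no array could be left out. A median was called moved when it shifted by over 0.1 and over 1.5 times, a count when it changed over 1.5 times. Of 120 values of counts and medians that answer the comparison, 111 stayed within these limits. Part of these could not move, since all 27 ubiquitous genes were kept under every filter. With the mean level required to exceed the median of all named genes, the neuronal median was 0.43, that of neuronal minus ubiquitous genes was 0.19 instead of -0.04, and 110 genes were lower, against 304, so that 80.7% of the genes past 1 were higher. With an offset of 32 before log2, 99 genes were lower, and 80.3% of the genes past 1 were higher, against 64.4%. Neuronal genes lower by more than 1 numbered 1 instead of 2 under both settings and under a background passed on both arrays. Median centring left 0 ubiquitous genes lower, with Stx16 at -0.99, and quantile normalization gave a ubiquitous median of 0.0690. The median of the VAMPs turned to -0.00135 with loess and -0.0368 with quantile normalization, that of the synaptotagmins, -0.14, to 0.0303 and 0.0490, and that of the syntaxins, 0.24, to -0.0186 both without a filter and with the 10th percentile. Rims1, Rims2, Unc13c, Snap91, Snap25, Vamp3, Rab30 and Syt1 stayed past 1 under all 10 alternatives. Rab3a was past 1 in 7 of 10, down to 0.88, Cplx1 in 8, down to 0.99, Rab39b in 9, down to 0.92, Rab3b in 8 of the 9 that kept it, down to 0.86, and Syt6 in 7 of the 8 that kept it, at -0.91 with the offset. The cause of these shifts was not tested. Values near background, among them Syt6 on the exercise array and Syt17 on the non-exercise array, are limited by signal over background.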
